A study of Mus musculus with 8 samples.

Results

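Genes of the hepatocytes around the central vein that depend on Wnt signalling, other than cytochromes P450, were examined in livers of mice heterozygous for eIF2α and of wild-type mice. That protein is the subunit of translation initiation factor 2 through which stress slows protein synthesis. The 10 members, Glul, Oat, Slc1a2, Rhbg, Gulo, Tbx3, Lgr5, Rnf43, Znrf3 and Axin2, were chosen by gene symbol, and all 10 were found among the 56077 genes and loci of the deposited count table. No measured value entered the choice rule, although the list was drawn up with earlier results of these data known. Total RNA depleted of ribosomal RNA had been sequenced from livers of 6-month-old C57BL/6 mice, lean and fed ad libitum, and killed in the fed state early in the morning. The control group holds 4 wild-type mice and the other group 4 mice that carry 1 floxed eIF2α allele (genotype Eif2a flox/+). No recombinase is named for the floxed allele, and the growth protocol describes animals of both groups as wild-type, so the labels alone do not show that the allele was deleted. Libraries W32, W33, W76 and W90 are wild-type and H11, H12, H15 and H75 heterozygous, as in the columns of the table. No litter or batch is recorded, and p-values treat the 8 livers as independent.

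Hepatocytes differ in their functions along the path of the blood from the portal vein to the central vein. Endothelial cells of the central vein secrete Wnt ligands and an R-spondin, which stabilise β-catenin in the adjoining hepatocytes, and β-catenin with factors of the TCF family then switches on the pericentral programme. Part of that programme serves nitrogen and antioxidant metabolism and includes glutamine synthetase. Another part consists of a transcription factor, Tbx3, and of components of the pathway itself, which sense R-spondin or dampen the Wnt signal. In bulk liver RNA, fewer cells of a type and less RNA per cell cannot be told apart.

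TCF factors recognise DNA with the core CTTTGA, or TCAAAG on the other strand. The RefSeq promoter table (GRCm38.p6) held 6 starts for 5 of the members (Glul, Oat, Slc1a2, Axin2 and Rnf43), and the 250 bases before each start were searched on both strands. Of all 32544 such windows in the table, 13.9% held the core. Among the members, the window of Slc1a2 held it 2 times. The RefSeq start that this window precedes, at 102706438, lies inside the gene, which GENCODE M21 begins at 102658659. The stretches with the core are shown because they are the member sequences in which it was found. The core is in capitals and each is read on the plus strand, 5′ to 3′.
Slc1a2, chr2:102706220-102706249, core beginning 206 bases before the start: agaagagggacaTCAAAGgccccaaatggt
Slc1a2, chr2:102706349-102706378, core beginning 77 bases before the start: agcatgtgacttCTTTGAcatcaaaacact
The match is a description of these letters, and no binding was measured.

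Eif2s1, the gene of eIF2α and the check on the genotype, was expressed at 28.4, 28.8, 32.8 and 30.1 CPM (normalised read counts, on library sizes scaled by the TMM method) in W32, W33, W76 and W90. It was at 20.5, 22.3, 20.8 and 25.1 CPM in H11, H12, H15 and H75. Every heterozygous liver lay below every wild-type liver (exact two-sided permutation test over 70 assignments, p = 0.0286, the smallest it can give). Heterozygous livers averaged 73.8% of the wild-type level. With edgeR's quasi-likelihood test over all genes, the log2 fold change of -0.44 (SE 0.095) missed the threshold (adjusted p = 0.315), whereas DESeq2 gave an adjusted p of 0.0156 (range over 18 alternatives 0.0156 to 0.633). Libraries held 22177979 to 28564357 counts. H15 stands apart from the other heterozygous libraries: with it left out, edgeR called 252 genes instead of 0. Markers of hepatocytes summed to 87783 to 118522 CPM in wild-type and 103182 to 113719 CPM in heterozygous livers, and all 8 were expressed.

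None of the 10 members passed a test of the genotypes over all 14261 genes. EdgeR's quasi-likelihood test called 0 members at an adjusted p of 0.05, where 0% of all genes passed. DESeq2 called 0 members (1.07% of all genes) and limma-voom called 0 (0% of all genes). At an unadjusted p under 0.05, 2 members had a lower mean in heterozygous livers, Tbx3 and Rnf43, and 0 a higher one, where 4.44% of all genes were lower and 4.90% higher. That count was 0 without W32, 1 without W33, W76 or H75, and 3 without W90 or H15. The median log2 fold change was -0.16 over the members and 0.0051 over all genes. In 7 members the heterozygous mean was lower and in 3 higher, and in all 10 the groups overlapped, as they did not in 4.38% of all genes. The members fall into 5 genes of nitrogen and ascorbate metabolism, whose log2 fold changes ran from -0.23 to 0.18, the transcription factor Tbx3, at -0.64, and 4 components of the Wnt pathway, which ran from -0.61 to -0.11. This division is by known role and was not tested.

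**Figure D1:**
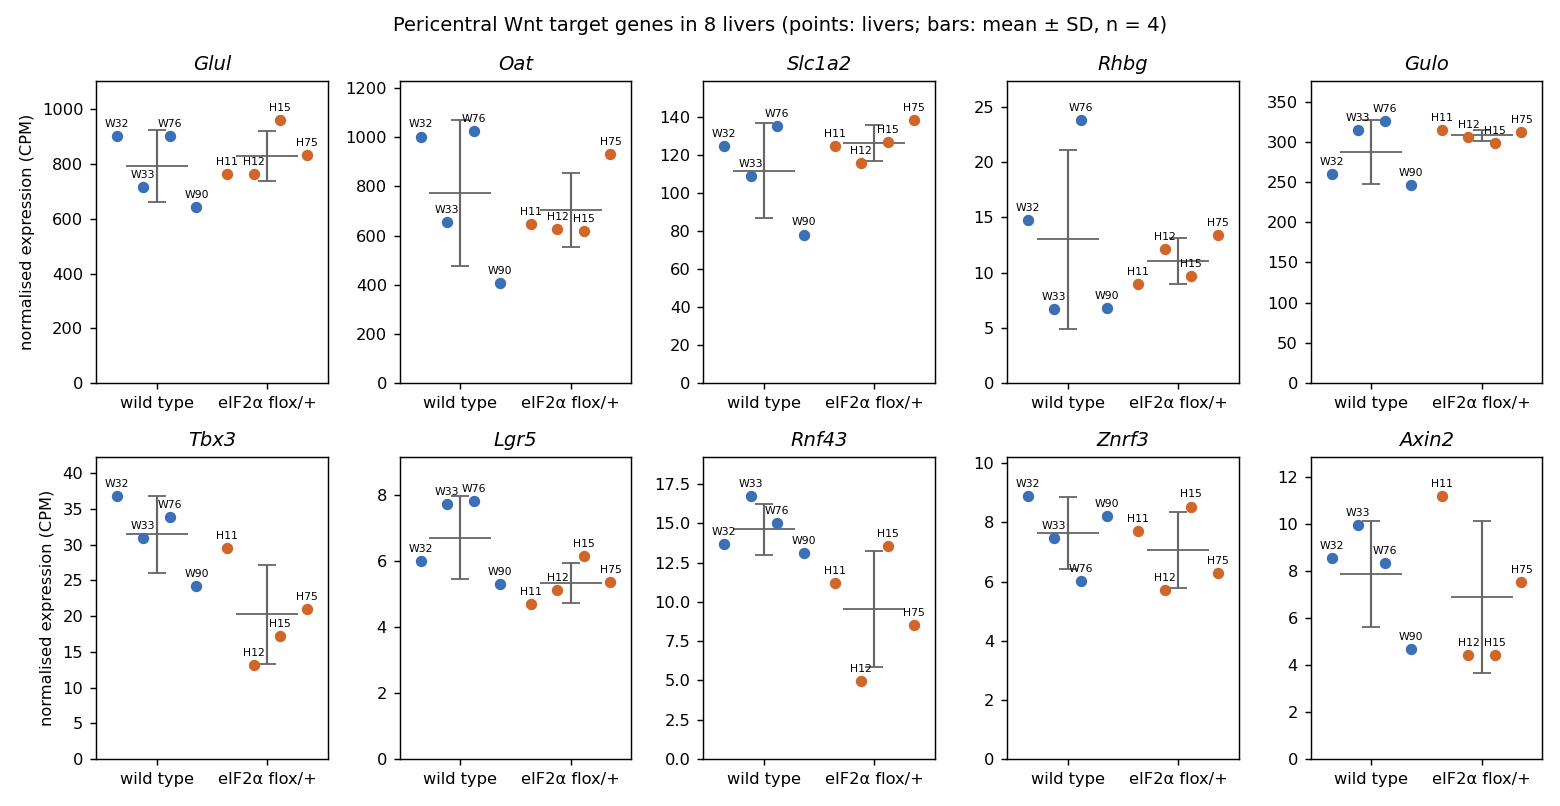
Normalised expression of the 10 genes in CPM on linear axes from 0, with 1 point per liver and the mean ± SD of 4 livers per genotype. The groups overlap in every panel, and the heterozygous points of Tbx3 and Rnf43 reach lowest in H12, at 13.1 and 4.97 CPM.

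Per length, Oat, Glul and Gulo were the most abundant members and the pathway components the scarcest. In wild-type livers Oat averaged 359 ± 137 RPKM (CPM divided by gene length in kilobases, mean ± SD, n = 4) and Glul 284 ± 47.2 RPKM, and their ranges overlapped. Gulo followed at 127 ± 17.5 RPKM, with its highest wild-type liver (144 RPKM) below the lowest for Glul (231 RPKM). Slc1a2 (9.65 ± 2.15 RPKM), Rhbg (6.71 ± 4.18 RPKM) and Tbx3 (6.48 ± 1.10 RPKM) overlapped one another. Rnf43, at 3.39 ± 0.375 RPKM, lay apart from Tbx3 above it and Axin2 below it, but overlapped Rhbg (3.88 against 3.47 RPKM in W33). Axin2 (1.85 ± 0.530 RPKM), Lgr5 (1.42 ± 0.268 RPKM) and Znrf3 (1.21 ± 0.195 RPKM) overlapped. The order was the same in heterozygous means, from Oat at 328 ± 69.7 RPKM to Lgr5 and Znrf3 at 1.13 ± 0.130 and 1.12 ± 0.205 RPKM. The lengths are the single value per gene in the authors' deposited table.

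Glul encodes glutamine synthetase, which captures ammonia in the last rows of hepatocytes before the central vein. Its expression in W32, W33, W76 and W90 was 903, 717, 903 and 644 CPM, and in H11, H12, H15 and H75 it was 765, 762, 959 and 831 CPM. The groups overlapped, with the highest value in H15 and the lowest in W90. Heterozygous over wild type, the log2 fold change was 0.07 (SE 0.14, 95% interval -0.24 to 0.37, edgeR adjusted p = 0.908), and it turned negative with library totals as the scaling and without W90 or H15.

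Oat encodes ornithine aminotransferase, a mitochondrial enzyme that links ornithine to glutamate. It was at 1003, 655, 1024 and 409 CPM in wild-type livers, in the order W32, W33, W76 and W90, and at 646, 626, 620 and 930 CPM in heterozygous livers, in the order H11, H12, H15 and H75. W32 and W76 were well above W33 and W90, and H75 stood above the other heterozygous livers. The log2 fold change was -0.13 (SE 0.27, 95% interval -0.74 to 0.47, edgeR adjusted p = 0.909), positive without W32 or without W76.

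Slc1a2 encodes a glutamate transporter of the plasma membrane. It was at 125, 109, 135 and 78.3 CPM in W32, W33, W76 and W90, and at 125, 116, 127 and 138 CPM in H11, H12, H15 and H75. Only W90 lay below 100 CPM, and the heterozygous livers sat within the upper range of the wild-type livers or, in H75, just above it. The log2 fold change was 0.18 (SE 0.15, 95% interval -0.17 to 0.52, edgeR adjusted p = 0.750) and stood at 0.036 without W90, 0.28 without W76 and 0.091 with library totals as the scaling.

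Rhbg encodes an ammonium transporter of the Rhesus family. It was measured at 14.7, 6.72, 23.7 and 6.81 CPM in W32, W33, W76 and W90, a 3.53-fold range, and at 9.0, 12.1, 9.73 and 13.4 CPM in H11, H12, H15 and H75, a 1.49-fold range. All heterozygous values fell between the lowest and highest wild-type values. The log2 fold change was -0.23 (SE 0.38, 95% interval -1.07 to 0.60, edgeR adjusted p = 0.876) and 0.23 without W76. Among the 4416 genes within 2-fold of its wild-type level, 99.6% had a smaller coefficient of variation (CV) in wild-type livers than the 62.2% of Rhbg.

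Gulo encodes the oxidase of the last step of ascorbate synthesis, which mice retain. It was at 260, 315, 326 and 246 CPM in W32, W33, W76 and W90, and at 314, 306, 299 and 312 CPM in H11, H12, H15 and H75. The heterozygous livers were nearly level, with a CV of 2.28% against 13.8% in wild-type livers. Gulo had a log2 fold change of 0.10 (SE 0.11, 95% interval -0.14 to 0.34, edgeR adjusted p = 0.799), which was 0.033 without W90, 0.058 without W32, 0.17 without W76 and 0.017 with library totals as the scaling.

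Tbx3 encodes a T-box transcription factor that β-catenin induces in the liver. In W32, W33, W76 and W90 it was at 36.8, 30.9, 33.8 and 24.3 CPM, and in H11, H12, H15 and H75 at 29.5, 13.1, 17.2 and 21.0 CPM. H12, H15 and H75 were below every wild-type liver, and H11 lay inside the wild-type range. Heterozygous livers averaged 64.3% of the wild-type level, a log2 fold change of -0.64 (SE 0.23, 95% interval -1.14 to -0.13), which did not pass over all genes (edgeR adjusted p = 0.458). Over 18 alternative settings the log2 fold change ran from -0.88 without H11 to -0.48 without H12, and the adjusted p from 0.211 to 0.822.

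Rnf43 and Znrf3 encode a pair of membrane ubiquitin ligases that remove Frizzled receptors from the cell surface, and Lgr5 a receptor for R-spondins, which block those ligases. Rnf43 was at 13.7, 16.7, 15 and 13.1 CPM in W32, W33, W76 and W90, and at 11.2, 4.97, 13.6 and 8.50 CPM in H11, H12, H15 and H75. H11, H12 and H75 lay below all wild-type livers, and H15 lay inside their range. Heterozygous livers averaged 65.3% of the wild-type level (log2 fold change -0.61, SE 0.25, 95% interval -1.18 to -0.05, edgeR adjusted p = 0.502). Over 18 alternatives it ran from -0.83 without H15 to -0.40 without H12, with adjusted p from 0.127 to 0.822. It did not pass without H15, where 1.74% of all genes did.

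The acute phase genes Socs3 and Saa1, chosen after their values were seen, separated the heterozygous livers in the reverse order of Rnf43. Socs3, a feedback inhibitor of cytokine signalling, was at 25.2, 65.1, 3.95 and 40.1 CPM in H11, H12, H15 and H75, and between 1.97 and 4.68 CPM in wild-type livers. Saa1, a serum amyloid A gene, was at 113, 601, 20.9 and 428 CPM in the same heterozygous livers, and between 10.9 and 32.3 CPM in wild-type livers. H15, highest in Rnf43, was lowest in both, and H12, lowest in Rnf43, was highest in both. Among wild-type livers, W33 was highest in both Rnf43 and Socs3 but at 14.4 CPM in Saa1, and W90 was lowest in both Rnf43 and Saa1. The wild-type values of Socs3 and Saa1 all lie below those of H11, H12 and H75. Wild-type livers therefore could not show such a reversal over the same span. In heterozygous livers Tbx3 was, like Rnf43, lowest in H12 (13.1 CPM). It was highest in H11 (29.5 CPM), however, with H15 (17.2 CPM) below H75 (21.0 CPM). The part of the acute phase genes in the Rnf43 values was not tested.

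Znrf3 was at 8.89, 7.47, 6.01 and 8.21 CPM in W32, W33, W76 and W90, and at 7.71, 5.70, 8.54 and 6.30 CPM in H11, H12, H15 and H75. As with Rnf43, H12 was the lowest and H15 the highest heterozygous liver, but here only H12 lay below the wild-type range. Znrf3 had a log2 fold change of -0.11 (SE 0.17, 95% interval -0.50 to 0.27, edgeR adjusted p = 0.867), which was -0.023 without H12, -0.032 without W32, -0.065 without H75, -0.21 without W76, -0.22 without H15 and -0.19 with library totals as the scaling.

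Lgr5 was at 5.99, 7.72, 7.82 and 5.30 CPM in W32, W33, W76 and W90, and at 4.70, 5.12, 6.16 and 5.35 CPM in H11, H12, H15 and H75. H11 and H12 lay below every wild-type liver, H75 just above W90. The log2 fold change was -0.33 (SE 0.17, 95% interval -0.70 to 0.04, edgeR adjusted p = 0.579), negative in all 18 alternative settings.

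Axin2 encodes a scaffold of the complex that degrades β-catenin and is a widely used readout of the pathway. It was at 8.58, 9.97, 8.36 and 4.69 CPM in W32, W33, W76 and W90, and at 11.2, 4.43, 4.42 and 7.55 CPM in H11, H12, H15 and H75. H11 was above all wild-type livers while H12 and H15 were below all of them. Its log2 fold change of -0.20 (SE 0.33, 95% interval -0.93 to 0.53, edgeR adjusted p = 0.881) was -0.54 without H11, -0.38 without W90, -0.064 without W33, -0.035 without H15 and -0.031 without H12. The 3 least abundant members, Axin2, Lgr5 and Znrf3, rest on 104 to 279 counts per library. Low counts did not go with larger SEs throughout: Lgr5 and Znrf3 (SE 0.17 each) had smaller SEs than Oat (SE 0.27), with 10813 to 29443 counts.

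**Figure D2:**
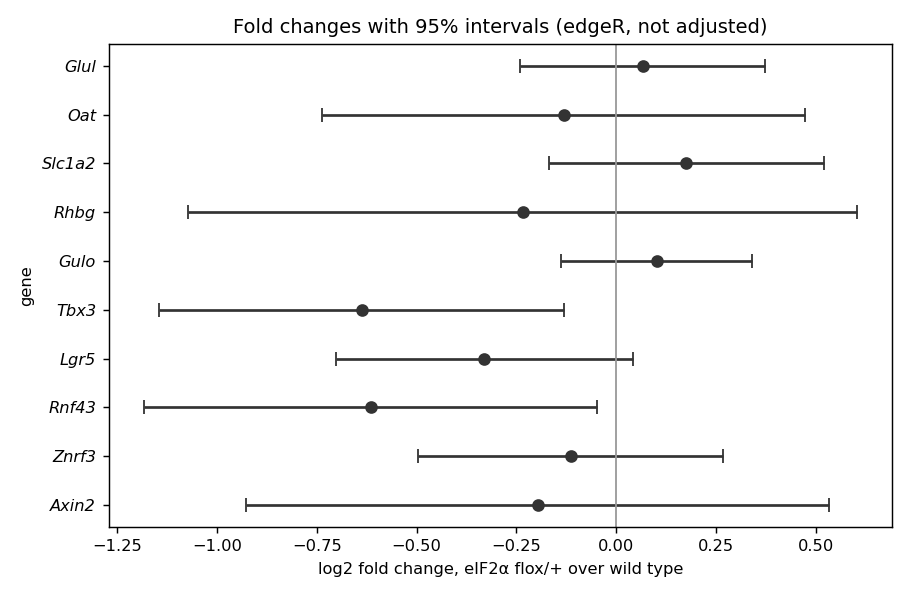
Log2 fold change of each gene, heterozygous over wild type, with its unadjusted 95% interval from edgeR (4 livers per genotype). The intervals of Tbx3 (-1.14 to -0.13) and Rnf43 (-1.18 to -0.05) exclude 0 before adjustment, and no gene passes after adjustment over all genes.

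Among wild-type livers, W90 was low across the list. It was the lowest wild-type library in 8 of the 10 members, all but Rhbg and Znrf3, and the lowest in 28.5% of all genes tested. W76 was the highest in 5 members (Oat, Slc1a2, Rhbg, Lgr5 and Gulo) and in 26.2% of all genes. Among heterozygous livers, H12 was the lowest in 5 members (Glul, Slc1a2, Tbx3, Rnf43 and Znrf3) and in 25.6% of all genes. The library median of the members relative to the wild-type mean was 0.20, -0.01, 0.20 and -0.34 on the log2 scale in W32, W33, W76 and W90, and -0.05, -0.29, -0.10 and 0.04 in H11, H12, H15 and H75, so the wild-type livers spanned the heterozygous ones. Markers of cholangiocytes, the bile duct cells, summed to 88.5 CPM in W90 and 34.5 to 50.5 CPM in the other wild-type livers. They were higher still in H12 (94.5 CPM) and H15 (103 CPM), which had the lowest and the highest Glul of the heterozygous livers. Markers of Kupffer cells (106 CPM) and of central vein endothelium (14.6 CPM), the source of the Wnt ligands, were the lowest of all libraries in W90. H15 came next in both (113 and 15 CPM). Sums of neutrophil (0.946 CPM) and lymphocyte (0.832 CPM) markers were also lowest in W90. Hepatocyte markers were the highest of all libraries there, at 118522 CPM. The part of these cell types in the low values of W90 was not tested.

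**Figure D3:**
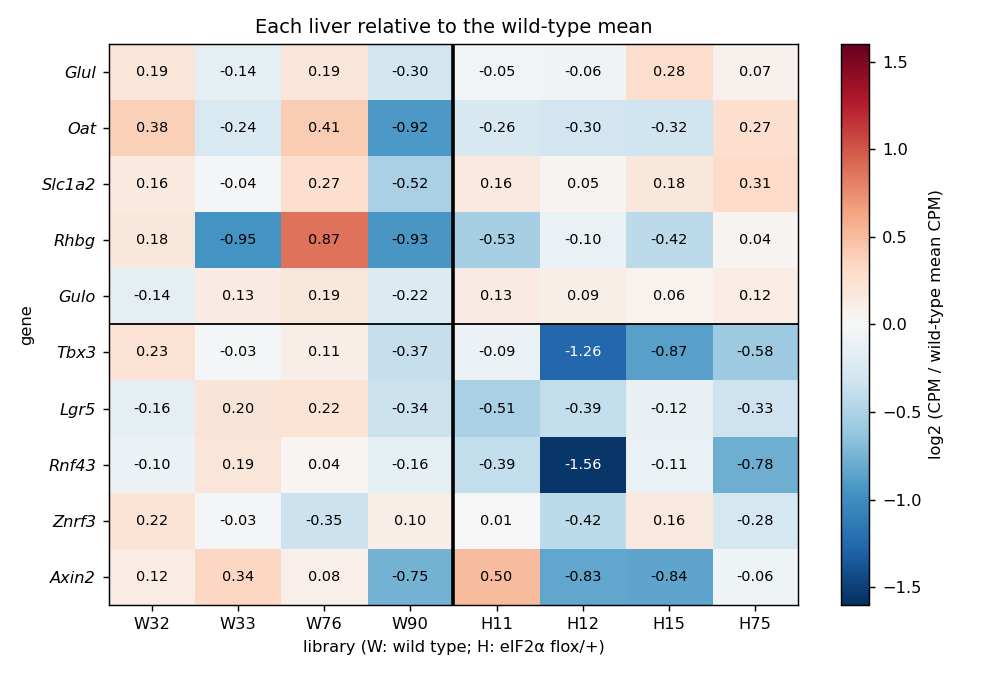
Log2 ratio of each liver's CPM to the wild-type mean CPM, with the metabolic genes above and Tbx3 and the pathway components below the horizontal line. W90 is negative in 9 of 10 genes, and H12, H15 and H75 are below -0.5 for Tbx3.

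The spread within groups also divided the members. The 5 metabolic genes and Lgr5 had a smaller CV in heterozygous than in wild-type livers (Slc1a2 7.35 against 22.3%, Oat 21.3 against 38.3%), while Tbx3, Rnf43, Axin2 and Znrf3 had a larger one (Rnf43 38.6 against 11.1%, Tbx3 34.5 against 17.0%). Of all genes tested, 34.8% had a smaller CV in heterozygous livers. With 4 livers per group these values are a description and the difference in spread was not tested.

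Profiles over the 8 livers placed the nitrogen genes nearest to Glul among the members. After centring log2 CPM and scaling it to unit SD, the root mean square difference from Glul ranked Slc1a2 at 32, Oat at 105 and Rhbg at 144 of 11229 genes, and Gulo at 2040. Tbx3 and the pathway components ranked from 2200 (Lgr5) to 5195 (Znrf3). The 5 genes nearest to Glul were Nup107 (0.306 SD), Tatdn1 (0.366 SD), Tyms (0.368 SD), Hps3 (0.378 SD) and Dbf4 (0.383 SD). These 5 rest on 51 to 206 counts per library, and the likeness of profiles was not tested.

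Of the genes upstream of the members, the Wnt ligands and R-spondins were scarce in whole liver. Only 8 of 23 passed the filter on low counts, and 7 had no count in any library. None of the 8 was called by edgeR, and 1, Wnt2, had an unadjusted p under 0.05. Wnt2, a ligand of the central vein and sinusoidal endothelium, was at 1.6, 2.5, 1.81 and 1.25 CPM in W32, W33, W76 and W90, and at 2.97, 3.43, 2.21 and 2.5 CPM in H11, H12, H15 and H75, a log2 fold change of 0.63 (SE 0.25, edgeR adjusted p = 0.487). The other 7 had negative values, among them Rspo3, the R-spondin of the central vein (-0.29), Wnt2b (-0.43) and Wnt4 (-0.59). Rspo3 was at -0.14 without H75, and Wnt4 at -0.29 without H75 and -1.13 without H15. Wnt9b, the other main ligand of the central vein, named after its values were seen, was at -0.43 (SE 0.36, edgeR adjusted p = 0.736), at -0.20 without W32, -0.26 without H15 and -0.71 without H12.

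Wnt receptors and secretion genes had 13 of 19 tested, with 0 called by edgeR, 3 lower and 0 higher at an unadjusted p under 0.05. Of the 13, the heterozygous mean was above the wild-type mean in 6 and below it in 7, and the median log2 fold change was -0.05. The 3 were the Frizzled receptors Fzd5 (log2 fold change -0.52, adjusted p = 0.465), Fzd7 (-0.53, adjusted p = 0.486) and Fzd8 (-0.44, adjusted p = 0.507, edgeR). Fzd8 was at 10.1, 10.1, 11.4 and 9.99 CPM in W32, W33, W76 and W90, and at 7.03, 5.62, 10.9 and 7.05 CPM in H11, H12, H15 and H75. As in Rnf43, H15 lay inside the wild-type range and the other 3 below it. Without H15, where 1.74% of all genes passed, Fzd8 did too (log2 fold change -0.66, edgeR adjusted p = 0.0428, range over 18 alternatives 0.0428 to 0.904). Leaving out the only overlapping library removes the overlap by itself, so no conclusion is drawn from this call. Fzd4 had a log2 fold change of -0.34 with 11.4 CPM in H12 and 14.0 CPM in H75, against 28.4 and 30.5 CPM in H11 and H15. It was -0.13 without H12, -0.19 without H75, -0.51 without H11 and -0.57 without H15, and Fzd7 was -0.35 without H12.

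The list medians of receptors and secretion genes were -0.41 in H12 and -0.52 in H75, against 0.10 in H11, 0.09 in H15 and -0.08 to 0.21 in wild-type livers. The medians of ligands and R-spondins were -0.50 in H12 and -0.62 in H75, against -0.25 in H11, 0.17 in H15 and -0.10 to 0.15 in wild-type livers. Those of antagonists and other feedback genes were -0.38 in H12 and -0.69 in H75. Markers of stellate cells, the matrix-producing cells of the sinusoids, were also lowest in H12 and H75. The 8 of 8 tested markers summed to 160 CPM in H12 and 97.3 CPM in H75, with no marker at 0. They summed to 260 CPM in H11, 249 CPM in H15 and 177 to 233 CPM in wild-type livers. H11, low for ligands, was thus the highest for these markers. Markers of central vein endothelium summed to 25.0 CPM in H12, the highest of all libraries, and to 15.8 CPM in H75. Their wild-type range was 14.6 to 20.2 CPM. Markers of sinusoidal endothelium, at 226 CPM in H12 and 192 CPM in H75, lay inside the wild-type range of 174 to 239 CPM. H12 and H75 also had the lowest TMM factors (0.909 and 0.900, with the others up to 1.06) and the lowest mitochondrial share of counts (5.38 and 5.26%, against 5.98 to 7.34%). H12 had 0.977% of its counts in unannotated loci, against 0.431 to 0.569% in the others. The part of these measures in the medians was not tested.

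The genes that act downstream of the receptors were tested in the same way. Of 17 genes of the β-catenin destruction complex and its transducers, 16 were tested, 0 were called and 0 had an unadjusted p under 0.05 (edgeR), with 6 means higher, 10 lower and a median log2 fold change of -0.04. The 4 of lowest p were Tnks2 (0.16), Gsk3b (-0.19), Dvl3 (0.12) and Gsk3a (0.11). With library totals as the scaling Tnks2 was at 0.065, Dvl3 at 0.034 and Gsk3a at 0.015, and Gsk3b was at -0.10 without H75 and -0.11 without W76. Without H12, Tnks2 was at 0.082 and Dvl3 at 0.053, and without W76 Gsk3a was at 0.063. Ctnnb1, the gene of β-catenin, named after its values were seen, had 179 to 185 CPM in wild-type and 182 to 191 CPM in heterozygous livers (log2 fold change 0.04, SE 0.07). Of 14 nuclear effectors 12 were tested and 0 called, with 1, the corepressor Tle1, at an unadjusted p under 0.05 (log2 fold change 0.42, SE 0.14, edgeR adjusted p = 0.445). Bcl9 was at -0.31, Ctnnbip1 at -0.30 and Tle2 at -0.20. Ctnnbip1 was at -0.46 without H15, and Tle2 at -0.10 without W33, -0.13 without H12 and -0.32 without W76. Of the 12, 4 means were higher and 8 lower, with a median log2 fold change of -0.06. By library the median was -0.13, -0.15, 0.01 and -0.22 in H11, H12, H15 and H75 and -0.09 to 0.15 in wild-type livers. No difference between these lists was tested.

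Antagonists and other feedback genes had 11 of 21 tested and 0 called by edgeR. The growth regulator Myc was higher at an unadjusted p under 0.05 (log2 fold change 1.37, SE 0.44, edgeR adjusted p = 0.425), with 16.5 CPM in H12 and a log2 fold change of 0.82 without it, and the cyclin Ccnd1 lower (-0.82, SE 0.33, adjusted p = 0.493). Tnfrsf19, a receptor of the tumour necrosis factor family, was at 2.29, 2.39, 5.95 and 1.5 CPM in H11, H12, H15 and H75 and at 3.78 to 5.86 CPM in wild-type livers. Its log2 fold change was -0.65 (edgeR adjusted p = 0.630). Without H15, the only heterozygous liver not below the wild-type range, it passed (-1.20, edgeR adjusted p = 0.0428, range over 18 alternatives 0.0428 to 0.938). So did 1.74% of all genes, and no conclusion is drawn from this call either. Dkk3, of the Dickkopf family, was at 0.35, and at 0.21 without W76.

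**Figure D4:**
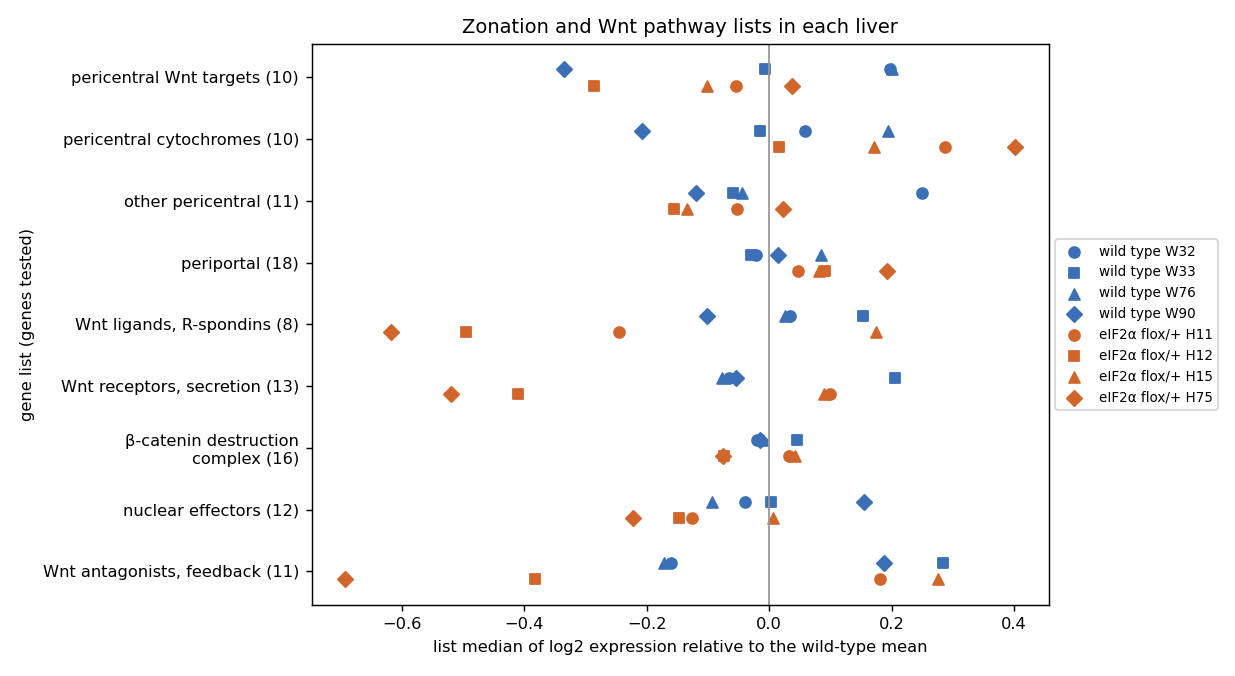
Median over each list's tested genes of log2 (CPM + 0.1) relative to the wild-type mean, with 1 point per liver. H12 and H75 lie lowest for ligands, receptors and antagonists (-0.38 to -0.69), while the 10 members span -0.34 to 0.20 in wild-type and -0.29 to 0.04 in heterozygous livers.

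Other zonated genes were compared with the members. Pericentral cytochromes P450 had 10 of 10 tested and 0 called by edgeR, with 8 means higher and 2 lower in heterozygous livers. Their median log2 fold change was 0.14, against -0.16 for the members. At an unadjusted p under 0.05 (edgeR), 3 cytochromes were higher and 0 lower, while 0 members were higher and 2 lower. Of all genes, 4.90% were higher and 4.44% lower. Cyp1a2, which oxidises caffeine and aromatic amines, was at 341, 493, 468 and 352 CPM in W32, W33, W76 and W90, and at 637, 539, 504 and 670 CPM in H11, H12, H15 and H75. These groups did not overlap, but the gene did not pass (log2 fold change 0.51, SE 0.15, edgeR adjusted p = 0.390). Cyp2c37 (0.57), Cyp2c54 (0.37) and Cyp2c50 (0.29) are close copies of one another, and their reads can be shared. Other pericentral genes had 0 of 11 called, 3 means higher and 8 lower, and a median of -0.12. Gstm1, a glutathione transferase with close copies, was at -0.34, Rgn at -0.15, Avpr1a, a vasopressin receptor, at 0.33 and the claudin Cldn2 at -0.12. Periportal genes had 0 of 18 called, 15 means higher and 3 lower, and a median of 0.12. The 8 hepatocyte markers had 6 means higher and 2 lower, with a median of 0.22. Over all genes tested, 7284 means were higher and 6977 lower. The gluconeogenic genes G6pc (0.68, adjusted p = 0.483) and Pck1 (0.57, adjusted p = 0.523, edgeR) were higher at an unadjusted p under 0.05, while Aldh1b1 was at -0.24 and Pigr at 0.16 (0.076 with library totals as the scaling). Leaving out 1 library moved several of these: Cyp2c50 was at 0.18 without W90, Rgn at -0.098 without W76, Cldn2 at -0.19 without H15, G6pc at 0.40 without H12 and Pck1 at 0.36 without H75. Avpr1a was at 0.15 without W32, 0.21 without H15 and 0.49 without W90. With library totals as the scaling Rgn was at -0.24 and Cldn2 at -0.20. The differences between these lists and the members were not tested.

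Markers of the cells that could alter whole-liver values were read beside the members. Central vein endothelium, with 6 of 6 tested, summed to 14.6 to 20.2 CPM in wild-type and 15 to 25 CPM in heterozygous livers, and sinusoidal endothelium, with 8 of 8, to 174 to 239 and 192 to 289 CPM. Kupffer cell markers, 8 of 8, summed to 106 to 264 and 113 to 259 CPM, and cholangiocyte markers, 6 of 7, to 34.5 to 88.5 and 41.6 to 103 CPM. Neutrophil markers, 3 of 7, summed to 0.946 to 2.49 and 1.57 to 7.55 CPM, and lymphocyte markers, 1 of 7, to 0.832 to 2.90 and 1.16 to 2.89 CPM. Every marker had counts in at least 1 library, and edgeR called 0 genes of any marker list. At an unadjusted p under 0.05, 0 markers had lower means, and Fgb and Hnf4a of hepatocytes, Wnt2 and Pecam1 of endothelium, Sox9 of cholangiocytes and S100a8 and S100a9 of neutrophils had higher means. Apart from Wnt2, these were named after their values were seen.

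The members are protein-coding genes of GRCm38, located in GENCODE M21. Glul lies on chromosome 1 from 153899944 to 153909723, Tbx3 on chromosome 5 from 119670669 to 119684724, and Rnf43 on chromosome 11 from 87662722 to 87735539, all on the plus strand. Znrf3 and Axin2 are also on chromosome 11, from 5276324 to 5444847 and from 108920349 to 108950783. Oat lies on chromosome 7 from 132557478 to 132576398, Slc1a2 on chromosome 2 from 102658659 to 102790784 and Rhbg on chromosome 3 from 88242874 to 88254709. Gulo lies on chromosome 14 from 65986786 to 66009207 and Lgr5 on chromosome 10 from 115450311 to 115587780. Exons of Glul, Axin2, Slc1a2 and Tbx3 overlap an annotated gene on the other strand (Teddm2, Gm11670, Gm13872 and Tbx3os1), while Rhbg overlaps Gm38392 and Glul overlaps Mir8114 on the same strand. No source used here says whether counting respected strand, and part of these reads may belong to the overlapping genes.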

How the data were processed

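The authors deposited estimated counts per gene, not normalized, for 8 libraries, of which 90.0% of values are whole. The submitters' processing notes name the mm10 build, SAMtools 1.9, GATK 3.8, Bowtie2 2.2.9 and fastp 0.19.5 without their roles. The sources used here do not name the counting program. A second table deposited by the authors, a DESeq2 comparison by its name, gives per gene a length, a fold (ratio), a log2 fold change and p-values. Unannotated loci numbered 541 in the count table.

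Counts were rounded, filtered with filterByExpr (14261 genes left), scaled by TMM (factors 0.900 to 1.06) and tested with edgeR 4.0.16 (quasi-likelihood F-test, default method, group as the term) in R 4.3.3, with Benjamini-Hochberg adjustment over all genes and calls at an adjusted p under 0.05. Column names carry the group by their first letter and no replicate number. Alternatives were other scalings, filters and fits, DESeq2 1.42.0, limma-voom (limma 3.58.1) and each library left out. The scripts were tested on simulated data. Members and the 8 pathway and 8 marker lists were chosen with earlier results of these data known. Named genes are the members, Eif2s1, up to 4 genes of lowest p in each pathway list and 5 profiles nearest to Glul (mean of at least 1 CPM, pseudocount 0.1). Socs3, Saa1, Ctnnb1, Wnt9b and the markers Fgb, Hnf4a, Pecam1, Sox9, S100a8 and S100a9 fall outside this rule and were named after their values were seen. Wisp1 and Tf were matched as Ccn4 and Trf. The scarce members rest on few counts (104 at least).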

Additional observations from a re-analysis of the deposited data

Results flagged for a closer look

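Among 88 groups of 4 libraries checked for 44 named genes, 3 held a library far from its group, and chance flags about 1 group in 20. Oat was at 930 CPM in H75, while the other heterozygous livers were at 620 to 646 CPM. Fzd8 was at 11.4 CPM in W76 and at 9.99 to 10.1 CPM in the other wild-type livers. Avpr1a was at 45.8 CPM in H15 and at 33.6 to 35.5 CPM in the other heterozygous livers.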

How the results depend on the processing

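Over 18 alternatives 0 of the 10 members passed an adjusted p of 0.05. The count over all genes, 0 with edgeR, was 152 with DESeq2 (91 higher, 61 lower), 18 with no filter on low counts (15 higher, 3 lower), and 1 each with the newer quasi-likelihood method, with robust dispersions and without unannotated loci and mitochondrial genes. With 1 library left out it ran from 0 to 252 (252 without H15, 2 without W32). Eif2s1 passed with DESeq2 (log2 fold change -0.44, adjusted p = 0.0156) and ran from -0.51 to -0.39 with 1 library left out. Glul turned negative with library totals alone (-0.012) and ran from -0.022 to 0.14 with 1 library left out, Oat from -0.34 to 0.035 and Rhbg from -0.45 to 0.23. The other 7 members kept their direction in all 18 alternatives. The causes were not tested. No paired analysis was possible because no litter or other pairing of the mice is recorded.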

Other observations

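In the authors' deposited table of comparisons, Tbx3 had a log2 fold change of -0.64 with an adjusted p of 0.217, and Rnf43 one of -0.61 with an adjusted p of 0.346. None of the 10 members is marked significant in the authors' deposited table.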
